A study of Mus musculus with 10 samples.

Results

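The 9 genes described here are Krt7, Krt8, Krt18, Krt19, Krt23, Sox9, Spp1, Epcam and Elf3, which are used as markers of bile duct cells, of simple epithelial keratins and of the ductular reaction of injured liver. They were chosen by name, with earlier results of these data known, and matched to mouse identifiers through the GENCODE annotation. They are 9 of the 38922 genes in the expression tables. All 9 passed the filter on low counts, which left 13719 genes. RNA was sequenced from whole livers of male C57BL/6N mice aged 6 weeks, 6 h after an intraperitoneal injection. Of the 10 mice, 5 received an antibody that activates the death receptor CD95 (Fas), at 0.5 µg per g of body weight, and 5 received saline. The livers of the mice given the antibody (CD95-Ab) are a model of acute liver failure, in which hepatocytes die by apoptosis. No genetic change is named for either group, and whole tissue was used, so no cell type was isolated. The summed counts per liver were between 25965699 and 62097636 for saline and between 27480796 and 44962196 for CD95-Ab, and levels are given as CPM, counts scaled to a total of 1000000 per liver after that total was adjusted by its TMM factor, a correction for library composition. On this scale 3 counts correspond to between 0.0556 and 0.121 CPM.

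Keratins are intermediate filament proteins that work as pairs of a type II and a type I chain. Hepatocytes carry the pair of keratin 8 (type II) and keratin 18 (type I), which protects them from mechanical and toxic stress, while cholangiocytes, the lining cells of bile ducts, add keratin 7 (type II) and keratin 19 (type I). SOX9 is a transcription factor of duct cells that also appears in hepatocytes of injured liver, and EpCAM is a surface adhesion protein of duct and progenitor cells. Osteopontin, made from Spp1, is a secreted phosphoprotein of duct cells and macrophages, and ELF3 is an epithelial transcription factor of the ETS family. In the ductular reaction, duct-like cells with these markers multiply around the portal tracts of a damaged liver.

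The promoter windows of Krt8, Krt18 and Elf3 are printed because these are the genes past both thresholds used below for which a window was at hand, and because Krt8 and Krt18 are neighbours that both rose. They are taken from RefSeq on GRCm38.p6 and run from 250 bases before the annotated start to 50 bases after it. RefSeq windows were matched for 7 of the 9 genes, the exceptions being Sox9 and Krt19. Capitals mark matches to the motifs searched for on both strands.
Krt8, chr15:102004293-102004592, minus strand: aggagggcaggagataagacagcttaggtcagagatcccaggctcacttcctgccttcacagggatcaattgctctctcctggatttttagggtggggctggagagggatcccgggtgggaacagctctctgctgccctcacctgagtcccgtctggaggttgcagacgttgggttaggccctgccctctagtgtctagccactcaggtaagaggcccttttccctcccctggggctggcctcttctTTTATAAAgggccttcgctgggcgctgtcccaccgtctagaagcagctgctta
Krt18, chr15:102027966-102028265, plus strand: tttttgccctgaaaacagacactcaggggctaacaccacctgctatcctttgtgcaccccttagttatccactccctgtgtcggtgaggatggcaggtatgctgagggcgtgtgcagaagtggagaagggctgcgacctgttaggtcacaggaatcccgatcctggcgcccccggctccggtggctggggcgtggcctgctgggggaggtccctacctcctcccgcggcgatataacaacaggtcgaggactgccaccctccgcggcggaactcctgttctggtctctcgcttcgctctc
Elf3, chr1:135258423-135258722, minus strand: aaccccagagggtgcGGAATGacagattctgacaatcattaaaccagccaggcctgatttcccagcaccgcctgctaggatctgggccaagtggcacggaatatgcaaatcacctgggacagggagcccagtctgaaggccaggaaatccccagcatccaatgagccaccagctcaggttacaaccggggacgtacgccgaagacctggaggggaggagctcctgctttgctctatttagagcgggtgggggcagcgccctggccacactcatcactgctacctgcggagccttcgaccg
The Krt8 window held the TATA letters TATAAA on both strands, in overlapping matches at positions -3 and -1 from the annotated start, and 13.6% of the 32851 windows of all genes held them. The Elf3 window held the TEAD letters CATTCC, read on the opposite strand, at position -235 from the start, and 14.7% of all windows held those. None of the motifs searched for was found in the Krt18 window. The letters of AP-1 (TGACTCA, in 5.2% of all windows) and of ETS factors (CCGGAAGT, 3.89%) were not in these 3 windows. Nor were those of STAT factors (TTCCNGGAA, 1.15%) and of the GC box (GGGCGG, 35.7%). For NF-kB only a narrow form of the motif was searched for, which 1.2% of all windows held and these 3 did not. Wider forms of the NF-kB motif were not searched for, so their absence from these windows is not shown. The windows of Krt8 and Krt18 had a GC content of 58.0% and 61.3% and that of Elf3 59.0%, against a median of 52.7% over all windows. A match of letters is a description and not a binding site.

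Of the 9 genes, 7 were higher after CD95-Ab than in saline-injected controls and 0 were lower, at a false discovery rate (FDR) of 0.05 or less in edgeR's quasi-likelihood test over all 13719 genes. DESeq2 gave the same 7 and 0, and an unadjusted p under 0.05 gave those counts too. Among all tested genes, 25.4% were higher and 22.0% were lower by that rule. Because the 9 genes and all gene lists were chosen with earlier results known, such shares are given as background. They are no test of a list. For Sox9, Elf3, Krt18 and Krt8 the log2 fold change was also at least 2, as it was for 6.59% of all tested genes, while 1.11% were past -2. In Krt8, Krt18, Sox9, Epcam and Elf3 every CD95-Ab mouse was above every saline mouse, which held for 18.6% of all tested genes. The median log2 fold change was 1.99 over the 9 genes and 0.006 over all tested genes. Krt7 and Krt23 did not pass the test. RNA from whole tissue cannot tell more cells of a type from more RNA per cell.

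**Figure D1:**
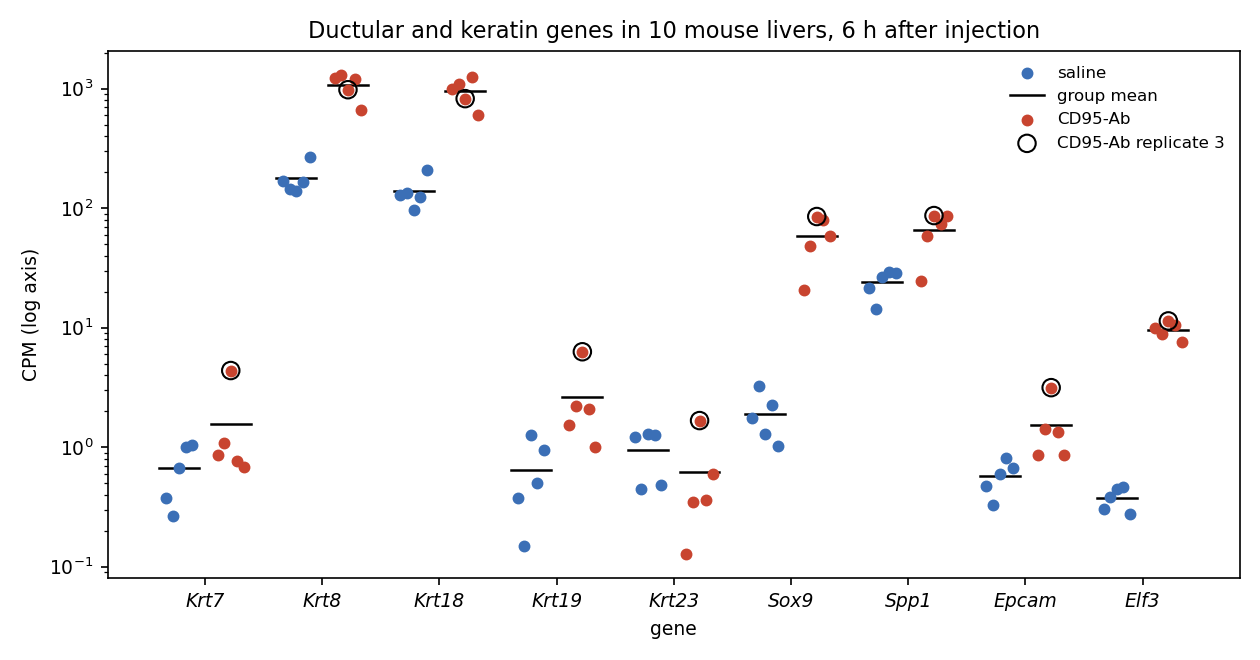
CPM of the 9 genes (log axis) in each of the 5 saline and 5 CD95-Ab mice, with the group mean as a line and CD95-Ab replicate 3 circled. The groups do not overlap for Krt8, Krt18, Sox9, Epcam and Elf3, and CD95-Ab replicate 3 is the highest mouse for 7 of the 9 genes, the exceptions being Krt8 and Krt18.

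Krt8 and Krt18, the keratin pair of hepatocytes, were the most abundant of the 9 and rose 6.07-fold and 6.85-fold. Krt8 (ENSMUSG00000049382, GRCm38 chr15:101996698-102004482, minus strand) had 168, 145, 139, 167 and 270 CPM in saline mice 1 to 5, and 1230, 1310, 981, 1210 and 670 CPM in CD95-Ab mice 1 to 5. CD95-Ab mouse 5 was the lowest and saline mouse 5 the highest of its group, and the groups stayed apart. The mean went from 178 ± 53.4 to 1080 ± 260 CPM (SD, n = 5 each), a log2 fold change of 2.60 (SE 0.24, edgeR FDR 7.22e-06). An exact two-sided permutation test gave p = 0.00794, the smallest that 5 against 5 mice can give. Krt18 (ENSMUSG00000023043, chr15:102028180-102032027, plus strand) had 129, 133, 97.2, 125 and 210 CPM after saline and 999, 1090, 826, 1250 and 598 CPM after CD95-Ab. It thus had its highest saline value and its lowest CD95-Ab value in the same mice as Krt8. Its mean went from 139 ± 42.3 to 952 ± 249 CPM, a log2 fold change of 2.78 (SE 0.25, edgeR FDR 5.87e-06, exact permutation p = 0.00794). Both genes together took 0.0321% ± 0.00634 of all counts in saline livers and 0.198% ± 0.0529 in CD95-Ab livers. The processed pseudogene Krt8-ps had no entry among the 38922 genes of the data, so it has no counts here. Reads shared with other processed keratin pseudogenes could have been divided between copies by the authors' counting.

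The ratio of Krt8 to Krt18 counts was between 1.09 and 1.43 (median 1.3) in saline mice and between 0.967 and 1.24 (median 1.19) in CD95-Ab mice. Its log2 value differed by -0.17 between the groups, which did not pass an exact permutation test (p = 0.103, 0.133 after adjustment over the 6 ratios tested). In deviations from the group means over the 10 mice, Krt8 and Krt18 had Pearson's r = 0.94 (permutation p = 0.00271, 0.0488 adjusted over 36 pairs of the 9 genes) and Spearman's rho = 0.89 (permutation p = 0.00424, adjusted 0.0508). Without the 2 mice farthest from the median of Krt8, r was 0.83. Krt18 was in place 3 of all tested genes in likeness to Krt8, after Ik (r = 0.97) and Brms1 (r = 0.94), and the genes likest to Krt18 were Tspyl2 (r = 0.97), Otub1 (r = 0.96) and Sap30bp (r = 0.95).

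Krt8 and Krt18 lie beside each other on chromosome 15, transcribed away from each other from start sites 23697 bases apart, with 0 annotated genes between them. The genes on either side did not share the rise. Eif4b, a translation initiation factor gene after Krt18, fell from 183 ± 37.0 to 105 ± 12.5 CPM (log2 fold change -0.80, SE 0.16, edgeR FDR 0.00157), and Krt78, before Krt8, had 0 counts in every mouse.

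**Figure D2:**
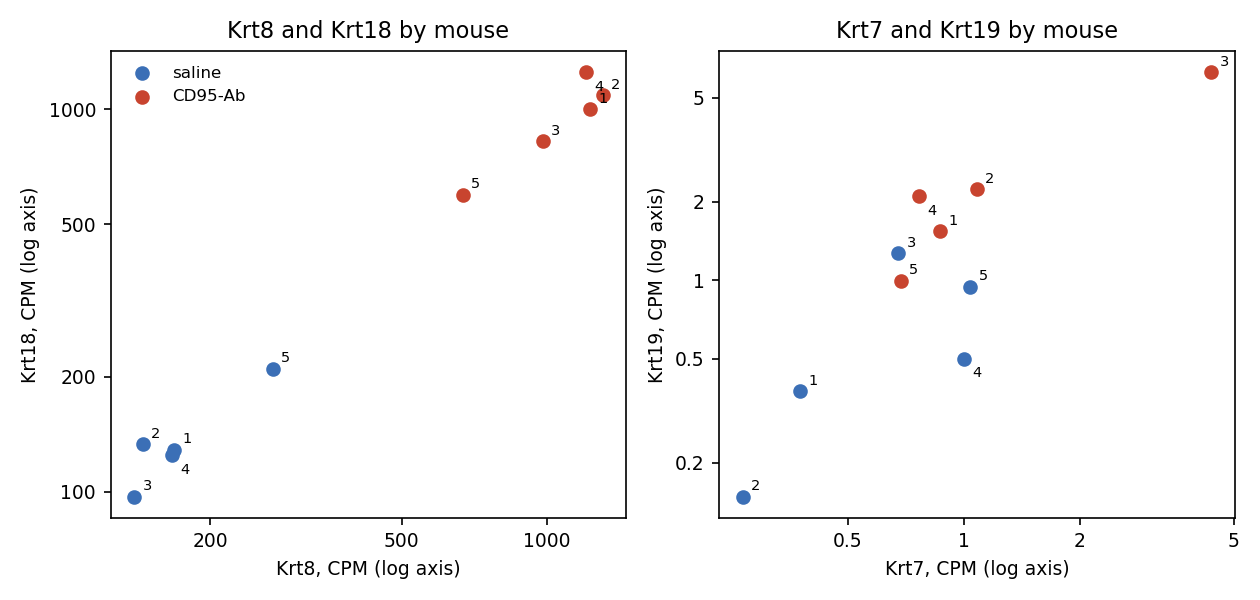
CPM of Krt18 against Krt8 (left) and of Krt19 against Krt7 (right), on log axes, with each point 1 mouse labelled by its replicate number. The groups are apart on both axes for Krt8 and Krt18, while for Krt7 and Krt19 they overlap and CD95-Ab replicate 3 lies alone at 4.38 and 6.29 CPM.

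Genes listed as keratin partners changed unevenly in RNA. The list holds linker and desmosome genes, and also the intermediate filament genes Vim, Lmna and Lmnb1. Of its 12 tested genes, 5 were higher and 1 was lower, with a median log2 fold change of 0.25. Among all tested genes, 25.4% were higher and 22.0% were lower. Ppl (periplakin, a linker of keratin to the membrane) rose from 11.4 ± 4.57 to 77.3 ± 17.5 CPM, a log2 fold change of 2.76 (SE 0.28, edgeR FDR 1.27e-05). Plec (plectin, a cytoskeletal linker) rose by 1.0 (SE 0.16) on the log2 scale, Vim (vimentin, the intermediate filament of mesenchymal cells) by 1.98 (SE 0.22), and the lamin genes Lmna and Lmnb1 by 0.58 and 0.76. Pkp4 (a plakophilin) fell by 0.62 on the log2 scale. The desmosome genes Dsp and Dsg2, at 20.5 to 69.0 and 61.9 to 115 CPM in saline, had log2 fold changes of -0.39 and -0.26 that did not pass the test (FDR 0.342 and 0.299). Eppk1, of the same list, was not used here.

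Of 7 genes for proteins found with keratin in Mallory-Denk bodies, the keratin aggregates of diseased hepatocytes, 4 were higher and 1 was lower. Over all tested genes, 25.4% were higher and 22.0% were lower. Tgm2 (a transglutaminase that cross-links keratin) rose from 99.1 ± 19.1 to 741 ± 175 CPM, a log2 fold change of 2.90 (SE 0.21, edgeR FDR 1.47e-06). Sqstm1 (p62, the ubiquitin-binding component of the aggregates) rose from 316 ± 22.4 to 545 ± 97.5 CPM, and Hspb1 (a small heat shock protein) from 4.97 ± 1.32 to 14.6 ± 5.69 CPM. Hspa1b (an inducible HSP70) was lower, at 7.43 ± 2.54 against 13.8 ± 6.87 CPM, with an FDR of 0.0475 that did not hold in 7 of the fits that left out a mouse. Its near-identical copy Hspa1a can share its reads.

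The keratins of duct cells behaved less evenly than the hepatocyte pair, and CD95-Ab replicate 3 stood apart in each of them. Krt7 (ENSMUSG00000023039, chr15:101411043-101430313, plus strand) had 0.376, 0.267, 0.676, 1.0 and 1.04 CPM after saline and 0.866, 1.08, 4.38, 0.767 and 0.686 CPM after CD95-Ab. Only CD95-Ab mice 2 and 3 were above every saline mouse, and the groups overlapped. The means of 0.672 ± 0.351 and 1.56 ± 1.58 CPM gave a log2 fold change of 1.19 (SE 0.57, 95% interval -0.06 to 2.44) that did not pass the test (edgeR FDR 0.108, exact permutation p = 0.175). Without CD95-Ab replicate 3 the log2 fold change was 0.33 (SE 0.40, FDR 0.535), and the other 4 CD95-Ab mice averaged 0.851 ± 0.171 CPM.

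Krt19 (ENSMUSG00000020911, chr11:100140810-100148665, minus strand) had 0.376, 0.148, 1.27, 0.500 and 0.946 CPM after saline and 1.54, 2.23, 6.29, 2.10 and 0.996 CPM after CD95-Ab. The first 4 CD95-Ab mice were above all saline mice, and mouse 5 was within their range. The mean went from 0.648 ± 0.452 to 2.63 ± 2.10 CPM, a log2 fold change of 1.99 (SE 0.58, edgeR FDR 0.0141, exact permutation p = 0.0159). Without CD95-Ab replicate 3 it was 1.37 (SE 0.49, FDR 0.0436), still past the threshold. Krt19 passed in each of the 10 fits that left out 1 mouse.

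Krt23 (ENSMUSG00000006777, chr11:99477974-99493137, minus strand), a type I keratin of liver and gut epithelium, was the only one of the 9 with a lower mean after CD95-Ab. It had 1.22, 0.445, 1.30, 1.27 and 0.482 CPM after saline and 0.128, 0.350, 1.67, 0.363 and 0.598 CPM after CD95-Ab, so the saline mice fell at 2 levels and the CD95-Ab mouse 3 was above all of them. The log2 fold change of -0.61 (SE 0.57, 95% interval -1.85 to 0.63) did not pass the test (edgeR FDR 0.403, exact permutation p = 0.286). Without CD95-Ab replicate 3 it was -1.34 (SE 0.47) with an FDR of 0.0405.

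Markers of mesothelial cells, which cover the liver surface and also carry Krt7, Krt8, Krt18 and Krt19, were highest in the same mouse. Their 6 genes summed to between 2.79 and 7.81 CPM in saline mice and between 3.51 and 32.0 CPM in CD95-Ab mice, with 32.0 in CD95-Ab replicate 3 and at most 12.5 in the other 4. Msln (mesothelin) was at 11.6 CPM and Upk3b (a uroplakin) at 8.28 CPM in that liver. Of the 5 mesothelial genes tested, 0 were higher in edgeR at an FDR of 0.05 or less, 3 were higher at an unadjusted p under 0.05, and 1 was higher in DESeq2. Over all tested genes, 25.4% were higher in edgeR. Leaving out CD95-Ab replicate 4 or 5 raised the edgeR count to 5 and 3. The summed endothelial and stellate cell markers were also highest in CD95-Ab replicate 3, at 392 and 758 CPM against at most 304 and 590 CPM in the other 4, and so were the summed hepatocyte markers (81900 against at most 59400 CPM) and neutrophil markers (465 against at most 358 CPM). The part of these cells in the keratin values was not tested.

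Of 27 other keratin genes, 16 had 0 counts in every mouse and 1 passed the filter on low counts, Krt10, at 0.770 to 1.07 CPM after saline and 0.478 to 1.05 CPM after CD95-Ab (log2 fold change -0.48, edgeR FDR 0.141). When no filter was used, Krt80, Krt17, Krt5 and Krt86 were called higher. Krt80, an epithelial type II keratin, had 7 counts over the 5 saline livers and 89 over the 5 CD95-Ab livers. For Krt17, a stress keratin of surface epithelia, there were 0 and 24 counts, of which 17 were in CD95-Ab replicate 3 and 7 in the other 4 CD95-Ab livers. By number of reads, these keratins stayed far below Krt8 and Krt18 in both groups.

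**Figure D3:**
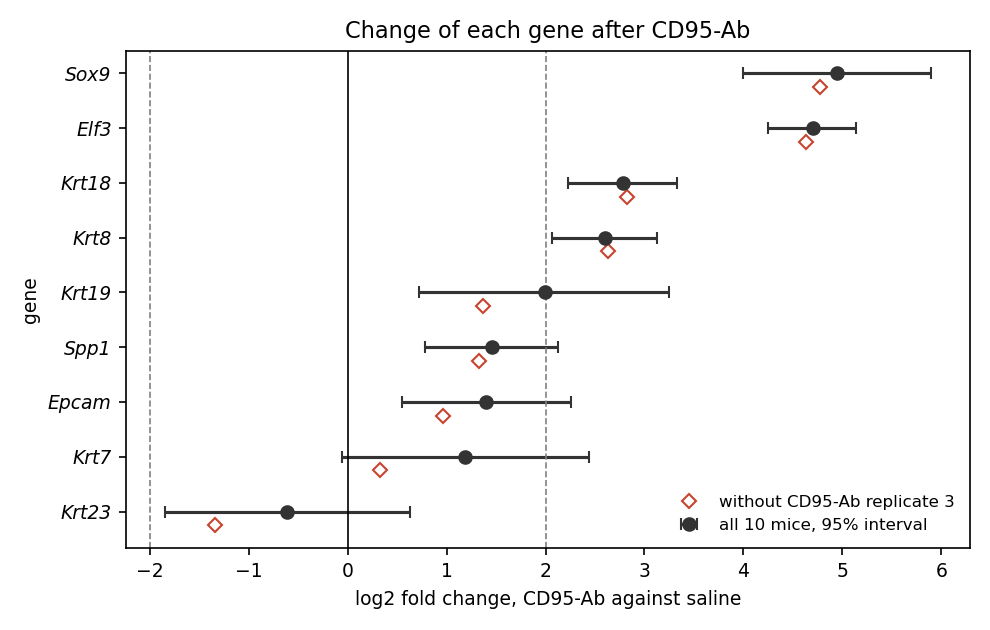
log2 fold change of each gene, CD95-Ab against saline, with its 95% interval from edgeR (dots and bars) and the value without CD95-Ab replicate 3 (open diamonds), the dashed lines marking -2 and 2. Sox9 (4.95) and Elf3 (4.70) lie farthest to the right, and Krt18 (2.78) and Krt8 (2.60) next. Each diamond is drawn just beneath its dot. The diamonds lie to the left of the dots for all genes but Krt8 and Krt18, by the most for Krt7, Krt19, Krt23 and Epcam.

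Sox9 had the largest change of the 9, a 30.6-fold rise. Sox9 (ENSMUSG00000000567, chr11:112782224-112787760, plus strand) had 1.74, 3.23, 1.30, 2.27 and 1.02 CPM after saline and 20.5, 48.3, 85.2, 79.4 and 58.9 CPM after CD95-Ab. The lowest CD95-Ab mouse, the first, was still far above the highest saline mouse. The mean went from 1.91 ± 0.877 to 58.4 ± 26.0 CPM, a log2 fold change of 4.95 (SE 0.43, edgeR FDR 4.68e-06, exact permutation p = 0.00794). Leaving out 1 mouse at a time gave 4.77 to 5.22. The gene whose deviations were likest to those of Sox9 was Ier5, an immediate early response gene (r = 0.98, rho = 0.96, 10 mice), which itself had a log2 fold change of 3.58.

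Of the 6 ratios between these genes within a mouse, 0 passed an exact permutation test after adjustment, while 2 had an unadjusted p under 0.05. On the log2 scale the ratio of Sox9 to Krt19 went from 1.56 to 4.54, a difference of 2.98 (exact permutation p = 0.0238, adjusted over 6 ratios 0.0952). Krt7 relative to Krt8 went from -7.94 to -9.68 (p = 0.0317 in the exact permutation test, adjusted 0.0952). The ratio of Krt19 to Krt18 differed by -0.94 (exact permutation p = 0.143) and that of Epcam to Krt19 by -0.67 (exact permutation p = 0.111). The summed type II against type I keratins of the 9 differed by -0.16 (exact permutation p = 0.103). Krt8 and Krt18 make up nearly all of these sums, so this ratio repeats that of Krt8 to Krt18.

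The list named SOX and Notch held only genes of the Notch pathway, which specifies bile ducts, and no SOX gene. Of its 11 tested genes, 5 were higher and 1 was lower at small sizes, with a median log2 fold change of 0.53. Among all tested genes, 25.4% were higher and 22.0% were lower. Rbpj (the DNA-binding partner of Notch) rose from 12.8 ± 2.29 to 22.0 ± 1.76 CPM (log2 fold change 0.79, SE 0.14, edgeR FDR 0.000577). Hes1 (a Notch target) was at 7.67 ± 5.07 and 16.5 ± 5.61 CPM (edgeR FDR 0.0453), Notch3 (a receptor) had a log2 fold change of 1.03, Nrarp (a Notch target) 0.90 and Jag1 (a ligand) 0.57. Dll4 (an endothelial ligand) fell by 0.93 on the log2 scale. The receptors Notch1 and Notch2 had log2 fold changes of -0.01 and 0.25 (FDR 0.966 and 0.174). The count of higher genes was 2 or 3 in 12 of the other settings, among them library totals alone and the fits without CD95-Ab replicate 3, 4 or 5 or without any 1 of the saline mice.

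Elf3 rose 25.6-fold, with little spread among the mice of a group. Elf3 (ENSMUSG00000003051, chr1:135253575-135258568, minus strand) had 0.306, 0.385, 0.451, 0.462 and 0.278 CPM after saline and 9.88, 8.79, 11.4, 10.6 and 7.57 CPM after CD95-Ab. No saline mouse was near any CD95-Ab mouse. The mean went from 0.376 ± 0.083 to 9.65 ± 1.51 CPM, a log2 fold change of 4.70 (SE 0.20, edgeR FDR 9.23e-08, exact permutation p = 0.00794). The antisense gene Gm26642, whose reads cannot be told from those of Elf3 without strand, was at 0.879 ± 0.399 and 0.565 ± 0.245 CPM (log2 fold change -0.65, FDR 0.181). Of 4 other ETS factors tested, 3 were higher, against 25.4% of all tested genes. Elf1, Elf2 and Elf4 are also made outside epithelia, among them in leukocytes, whose markers were higher in the same livers, and the part of these cells was not tested. Elf4 rose from 2.12 ± 0.879 to 7.45 ± 1.62 CPM (log2 fold change 1.81), Ehf by 1.16 and Elf1 by 0.79 on the log2 scale, while Elf2 had 0.17 (FDR 0.401).

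Spp1, for osteopontin, rose 2.74-fold. Spp1 (ENSMUSG00000029304, chr5:104435118-104441050, plus strand) had 21.5, 14.3, 26.6, 29.2 and 28.6 CPM after saline and 24.5, 58.4, 86.8, 74.1 and 85.8 CPM after CD95-Ab. The first CD95-Ab mouse was within the saline range and the other 4 were above it. The mean went from 24.0 ± 6.22 to 65.9 ± 25.8 CPM, a log2 fold change of 1.46 (SE 0.31, edgeR FDR 0.00239, exact permutation p = 0.0317). The first CD95-Ab mouse was also the lowest of its group in Sox9.

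Of 9 receptors of osteopontin, 7 were higher and 1 was lower, with a median log2 fold change of 1.34. Among all tested genes, 25.4% were higher and 22.0% were lower. Cd44 (a receptor also for hyaluronan) rose from 7.53 ± 4.46 to 46.4 ± 6.35 CPM (log2 fold change 2.62, SE 0.35, edgeR FDR 9.6e-05). Itgb3 (integrin beta chain) rose from 4.52 ± 0.613 to 18.9 ± 9.71 CPM (2.07, SE 0.31), Itga9 by 1.55, Itga4 by 1.60, Itga5 by 1.34, Itgav by 0.93 and Itgb1 by 0.61 on the log2 scale. Itgb5 fell from 41.0 ± 7.21 to 22.6 ± 3.06 CPM. Of the other 4 genes of the SIBLING glycoprotein cluster to which Spp1 belongs, 3 had 0 counts in every mouse and 0 passed the filter on low counts. Macrophages are another source of osteopontin, and of 9 tested macrophage markers 5 were higher. Lyz2 (lysozyme of myeloid cells) went from 34.8 ± 7.34 to 227 ± 69.9 CPM and Cd68 (a lysosomal protein) from 7.64 ± 3.78 to 26.5 ± 3.98 CPM, and Marco and Trem2 had log2 fold changes of 2.11 and 2.12. The Kupffer cell markers Clec4f and Vsig4 had log2 fold changes of 0.10 and -0.02. The macrophage list summed to between 155 and 480 CPM after saline and between 506 and 881 CPM after CD95-Ab. The part of macrophages in the Spp1 values was not tested.

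Epcam rose 2.67-fold from a low level. Epcam (ENSMUSG00000045394, chr17:87635979-87651129, plus strand) had 0.470, 0.326, 0.592, 0.808 and 0.667 CPM after saline and 0.866, 1.43, 3.15, 1.33 and 0.864 CPM after CD95-Ab. The groups did not overlap, though CD95-Ab mice 1 and 5 were only just above the highest saline mouse. The mean went from 0.573 ± 0.184 to 1.53 ± 0.941 CPM, a log2 fold change of 1.40 (SE 0.39, edgeR FDR 0.0115, exact permutation p = 0.00794). Without CD95-Ab replicate 3 it was 0.96 (SE 0.31, FDR 0.0258).

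In deviations from the group means over 10 mice, Epcam and Krt7 had r = 0.94 and rho = 0.95 (permutation p = 0.00104 for each, 0.0375 after adjustment over 36 pairs), and r = 0.87 without the 2 mice farthest from the median of Krt7. Krt19 had r = 0.84 with Epcam (rho = 0.87, adjusted permutation p = 0.0667 and 0.0508, r = 0.66 without the 2 farthest mice) and r = 0.84 with Krt7 (rho = 0.85, adjusted permutation p = 0.0781 and 0.0519, r = 0.70 without them), and neither pair passed the adjustment. Limk1, a kinase of the actin cytoskeleton, was among the 3 likest genes of both Krt7 and Epcam, at r = 0.95 with each. The genes likest to the others of the 9, given as a description over the 10 mice with rho between 0.83 and 1.0, were as follows. For Krt7 they also held Fmod and Bcam, for Epcam Mocs1 and Rabgef1, and for Krt19 Eva1c (r = 0.96), Esam and Slc39a14. For Krt23 the likest were Plat (r = 0.98), Hgd and Sdhd, for Spp1 Akr1b8 (r = 0.98), Cyp3a11 and Bclaf1, for Sox9 beside Ier5 also 2610008E11Rik and Lrrc29, and for Elf3 Mrps12 (r = 0.93), Mrps18a and Aga.

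Of 8 genes for proteases that cleave EpCAM or for subunits of such proteases, 2 were higher and 2 were lower, with a median log2 fold change of 0.00. Both shares were close to the 25.4% and 22.0% of all tested genes. Adam17 (the TNF sheddase) rose from 15.7 ± 1.49 to 34.8 ± 4.08 CPM (log2 fold change 1.15, SE 0.11, edgeR FDR 1.2e-05) and Adam10 by 0.47, while Bace1 (a beta-secretase) fell by 1.06 and Aph1a (a gamma-secretase subunit) by 0.60. Of 16 junction genes of epithelia, 5 were higher and 5 were lower, shares not far from those of all tested genes, and their median was 0.13. Cldn14, a claudin, rose from 11.4 ± 5.24 to 67.1 ± 30.6 CPM (log2 fold change 2.55, SE 0.36) and F11r (the adhesion molecule JAM-A) rose by 0.81 on the log2 scale. In the other direction, Cldn1 fell by 1.51, Cldn3 by 1.36 and Ocln (occludin) by 1.32 on the log2 scale. Cdh1 (E-cadherin), at 42.7 ± 18.6 and 52.3 ± 19.7 CPM, had a log2 fold change of 0.30 (FDR 0.507). The count of higher junction genes was 3 with library totals alone and without CD95-Ab replicate 1, 2 or 5.

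Other markers of cholangiocytes moved in both directions, and most were at low levels. Of 25 such genes 17 were tested, of which 7 were higher and 2 were lower, with a median log2 fold change of 0.70. Among all tested genes, 25.4% were higher and 22.0% were lower. Slc10a2 (the apical bile acid carrier) rose from 5.59 ± 2.26 to 21.6 ± 5.96 CPM (log2 fold change 1.95, SE 0.29, edgeR FDR 0.000211). Aqp1 (a water channel also of endothelium) rose from 27.8 ± 12.6 to 63.7 ± 21.3 CPM, and Bicc1 (an RNA-binding protein) and Muc1 (a mucin) rose by 1.46 and 1.39 on the log2 scale. Tff3 (a trefoil peptide) fell from 18.7 ± 15.5 to 5.08 ± 2.47 CPM. The secretin receptor gene Sctr had 3 counts over all saline livers and 4 over all CD95-Ab livers, and Cftr (the chloride channel) 15 and 40. The list summed to 190 CPM in CD95-Ab replicate 3 and at most 135 CPM in the other 4, and without that mouse, without CD95-Ab replicate 4, or without saline replicate 1 or 2, the count of higher genes was 4.

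Of 8 tested genes that have been linked to the ductular reaction, 4 were higher, all of them past 2 on the log2 scale, and 1 was lower. Over all tested genes, 25.4% were higher, 6.59% were higher and past 2, and 22.0% were lower. Lcn2 (lipocalin 2, an acute phase protein) rose from 29.6 ± 21.2 to 1770 ± 678 CPM (log2 fold change 5.90, SE 0.56) and Cxcl10 (a chemokine induced by interferon) from 3.93 ± 2.47 to 371 ± 239 CPM (6.56, SE 0.55). Tnfrsf12a (Fn14, the receptor of TWEAK) rose from 4.21 ± 1.05 to 59.6 ± 13.1 CPM (3.82, SE 0.22) and Cd24a (a surface glycoprotein of progenitor cells) from 1.53 ± 0.381 to 10.3 ± 5.86 CPM (2.73, SE 0.41). Afp (alpha-fetoprotein) fell by 1.24 on the log2 scale, to 0.685 ± 0.198 CPM, and Sox4 had a log2 fold change of 0.77 (FDR 0.126). Lcn2 is also made by hepatocytes and neutrophils, and the 10 neutrophil markers summed to between 4.19 and 10.8 CPM after saline and between 110 and 465 CPM after CD95-Ab. Their part in these values was not tested.

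**Figure D4:**
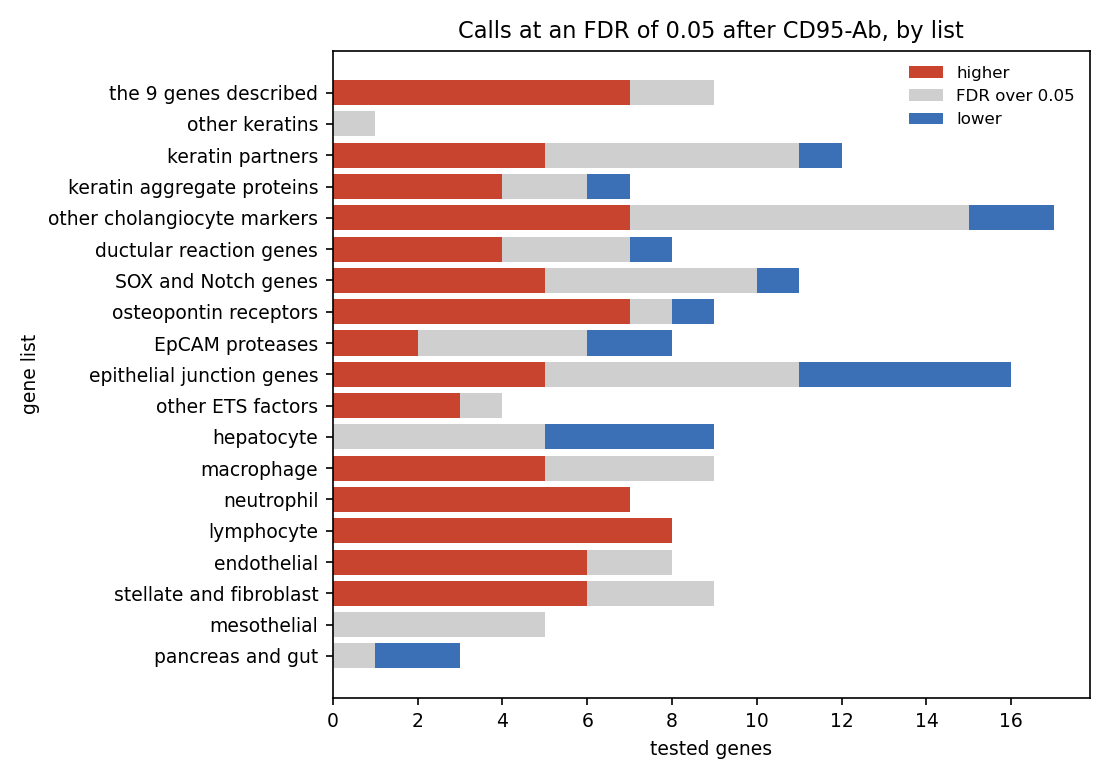
Number of tested genes of each list that were higher (red), lower (blue) or not past an FDR of 0.05 (grey) after CD95-Ab. Of the 9 genes described 7 were higher, the 16 junction genes were split into 5 higher and 5 lower, and the 9 hepatocyte genes held 4 lower. Over all tested genes, 25.4% were higher and 22.0% were lower.

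Per length of transcript, in FPKM (fragments per kilobase of transcript, scaled to library size), the order of levels after saline was Krt18 (mean 105), Krt8 (103), Spp1 (18), Krt23 (0.652), Sox9 (0.500), Krt19 (0.480), Epcam (0.294), Krt7 (0.226) and Elf3 (0.202). After CD95-Ab it was Krt18 (687), Krt8 (604), Spp1 (46.1), Sox9 (13.4), Elf3 (4.81), Krt19 (1.80), Epcam (0.728), Krt7 (0.524) and Krt23 (0.384). Neighbours in these orders overlapped between mice, except at the steps from Krt8 to Spp1 in both groups, from Spp1 to Krt23 after saline and from Spp1 to Sox9 after CD95-Ab. By mean FPKM over all genes, Krt18 went from rank 646 to 117, Krt8 from 658 to 129, Sox9 from 11608 to 3166 and Elf3 from 13220 to 6228. Elf3 was last of the 9 after saline and in place 5 after CD95-Ab.

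The labelled tissue showed its defining markers. The 9 hepatocyte genes summed to between 98200 and 125000 CPM after saline and between 41800 and 81900 CPM after CD95-Ab, with Alb (albumin) lower by 1.03 on the log2 scale (SE 0.25, edgeR FDR 0.00529). Of these hepatocyte genes 4 were lower and 0 were higher in edgeR, 5 and 0 at an unadjusted p under 0.05 and 5 and 0 in DESeq2. Markers of neutrophils (7 of 7 tested, of 10 listed), lymphocytes (8 of 8), endothelium (6 of 8) and stellate cells (6 of 9) were higher. The neutrophil genes Ly6g, Camp and Ltf did not pass the filter on low counts. Mmp8 (0 to 0.334 CPM after saline) and Ngp (0.0282 to 0.178 CPM) passed it through the CD95-Ab livers. For genes of that kind the filter favours a call of higher, so these shares are not fully comparable with those of all tested genes. Over all tested genes, 25.4% were higher and 22.0% were lower in edgeR. Past 2 on the log2 scale were S100a8 (6.44), S100a9 (6.16), Ngp (5.47), Csf3r (3.63), Cxcr2 (3.64), Retnlg (6.02) and Mmp8 (6.57) of neutrophils. The same held for Cd79a (2.27), Ms4a1 (2.03) and Klrb1c (2.20) of lymphocytes, and for Lyve1 (3.41) and Cdh5 (2.51) of endothelium. For lymphocytes the count was 5 without CD95-Ab replicate 1 or 4 or saline replicate 3 or 4, and 4 without saline replicate 5. Of 3 tested markers of pancreas and gut 2 were lower, among them Lgals4 (galectin 4), which fell by 2.37 on the log2 scale. The part of cell makeup in the values of the 9 genes was not tested.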

How the data were processed

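Livers of 10 mice (5 saline, 5 CD95-Ab) were compared, 1 library per mouse from 500 ng of RNA, with paired reads of 100 bp. The deposited tables hold expected counts and FPKM per gene, which the authors estimated with RSEM 1.2.19. The gene identifiers are mouse Ensembl IDs. The study's methods name a human GENCODE release. The build used and the strand setting are not given in the sources used here. RSEM divides reads that match several genes, so that values of near-identical copies are estimates.

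The 9 genes and all gene lists were chosen with earlier results of these data known. Of 38922 identifiers, 37606 were found in GENCODE mouse release 21 (GRCm38), which gave symbols and positions. Expected counts were rounded. Genes with too few counts were removed with filterByExpr (minimum count 10), and edgeR 4.0.16 in R 4.3.3 was run with TMM scaling and its quasi-likelihood test on group alone, with Benjamini-Hochberg adjustment (FDR) over 13719 genes and thresholds of 0.05 and of 2 or -2 for the log2 fold change. CPM is a gene's count scaled to 1000000 of the library's summed counts times its TMM factor, and is printed with the SD over mice. Exact two-sided permutation tests compared group means of log2(CPM + 0.1), and ratios within a mouse used the same pseudocount. Deviations of log2 CPM (prior count 2) from group means gave the correlations, whose p-values came from permutations. FPKM was used for levels between genes and, as log2(FPKM + 0.1) in limma 3.58.1, for an alternative. The 95% intervals of log2 fold changes came from the edgeR fit. Counts were simulated for 13719 genes, of which 100 were changed by 1 and 100 by 2 on the log2 scale. There edgeR recovered 63% of the first and 94% of the second, with 1.26% of calls being unchanged genes. Far more genes were called in the data, so these shares need not hold for the data.

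Named genes were all 9, the genes of each list past both thresholds and up to 4 more with the highest levels, the 3 genes likest to each of the 9, and their pseudogenes, antisense or overlapping genes. Not all genes named for their level alone are printed. Genes outside this rule that are named beside a list's count were chosen after their values were seen. Alternatives were DESeq2 1.42.0, other scalings, filters and prior counts, an FDR of 0.01, a log2 fold change of 1, the replicate block and leaving out each mouse. Positions are given on GRCm38. Some genes that the counts of lists include are not reported here by name.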

Additional observations from a re-analysis of the deposited data

Results flagged for a closer look

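In 7 of 48 groups of 5 values, a sample lay far from the others by Dixon's test. Chance gives about 1 in 20 for independent groups of normally distributed values. The groups here are not independent, since ratios reuse the values of single genes, so that rate need not hold. CD95-Ab replicate 3 accounted for 5 of the 7 cases: Krt7 at 4.38 CPM, Krt19 at 6.29 CPM, Epcam at 3.15 CPM, and the log2 ratios of Krt7 to Krt8 at -7.78 and of Krt19 to Krt18 at -7.01, each above the other 4 CD95-Ab mice. The same liver had the highest summed mesothelial markers, at 32.0 CPM. In it, Krt8 and Krt18 stood below the means of the CD95-Ab group.

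Saline replicate 5 was apart in Krt8, at 270.0 CPM, and it also had the largest summed counts. CD95-Ab replicate 4 was apart in the summed lymphocyte markers, at 14.7 CPM.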

How the results depend on the processing

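The 7 genes called higher and 0 called lower were the same counts under DESeq2, the likelihood ratio test, other scalings, no filter and a prior count of 2. At an FDR of 0.01 Krt19 (0.0141) and Epcam (0.0115) were no longer called. A minimum of 1 CPM in 5 mice removed Krt7, Krt23 and Epcam before the test. Leaving out 1 mouse at a time kept 7 higher and gave 0 to 1 lower, the 1 being Krt23 without CD95-Ab replicate 3 (-1.34, FDR 0.0405), and 4 to 5 genes past both thresholds. With a log2 fold change of 1 in place of 2, 7 genes passed both. Of the log2 fold changes of single genes under the alternatives, 183 kept their side of the threshold, 1 passed it, 2 fell short of it and 0 reversed.

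The ratios were less stable. Leaving out 1 mouse gave -0.23 to -0.11 for Krt8 to Krt18 and -0.22 to -0.10 for type II to type I, which is nearly the same ratio. For Sox9 to Krt19 it gave 2.59 to 3.52. The adjusted p was 0.0317 for each of these ratios without saline replicate 2 (exact permutation tests). A pseudocount of 1 gave -2.12 for Krt7 to Krt8 (adjusted p = 0.0238 in the exact permutation test), -1.74 for Krt19 to Krt18 (0.0317) and 3.22 for Sox9 to Krt19 (0.0238), and FPKM gave 2.88 for Sox9 to Krt19 (0.0476). A pseudocount of 1 is near or above the saline values of Krt7 (0.267 to 1.04 CPM) and Krt19 (0.148 to 1.27 CPM). It damps the rise of these genes, so the ratios with them depend on its size. The cause of the other shifts was not tested.

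Whether the replicate numbers pair the mice is not stated and was not tested. Same-numbered mice had correlations of deviations from -0.274 to 0.257 (mean 0.037), with 2 of 5 over 0.1. Differently numbered mice had -0.354 to 0.507 (mean -0.006), with 5 of 20 over 0.1. Of the saline mice, 2 correlated best with the CD95-Ab mouse of their own number. With a replicate block, 3310 genes were higher and 2677 lower against 3480 and 3015 without it, the 9 genes kept 7 higher, 0 lower and 4 past both thresholds, and the SOX and Notch list had 3 higher. Depth limits Krt7, Krt19, Krt23, Epcam and Elf3 in saline livers, which lie near 1 CPM or under.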
